A study of Homo sapiens with 30 samples.

Results

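The genes described here carry glucose through the prostate cancer cell: transporters that bring it in, the enzymes that split it to pyruvate, the enzymes and carriers of lactate, and the enzymes that govern the entry of pyruvate into the mitochondrion. The set also holds 3 enzymes of the pentose phosphate pathway and CAMKK2, a kinase upstream of AMPK that androgens are known to induce in prostate cells. Members were chosen by gene symbol from these pathways. The 39 genes are the transporters SLC2A1, SLC2A3, SLC2A10 and SLC2A12, upper glycolysis with HK1, HK2, GPI, PFKL, PFKM and PFKP, the control of fructose bisphosphate with PFKFB2, PFKFB3, PFKFB4 and FBP1, lower glycolysis with ALDOA, ALDOC, TPI1, GAPDH, PGK1, PGAM1, ENO1, ENO2 and PKM, the lactate genes LDHA, LDHB, SLC16A1 and SLC16A3, pyruvate entry with PDK1, PDK2, PDK3, PDK4, PDHA1, PDHB, DLAT and PC, the pentose phosphate genes PGD, TKT and TALDO1, and CAMKK2. All 39 symbols were found among the 23710 gene symbols of the count tables.

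RNA-seq was performed on 30 libraries in 10 conditions, with 3 replicates each. In the first experiment V16D and MR49F cells were kept in 10% full serum and given vehicle (DMSO) or 10 µM enzalutamide, an antiandrogen drug, for 24 h. In the second, MR49F cells were held in 10% charcoal-stripped serum, which is depleted of steroids, for 72 h. They then received, for 24 h, vehicle (DMSO and ethanol), 10 µM enzalutamide, 1 nM dihydrotestosterone (DHT), 500 nM JQ-1, or JQ-1 together with either enzalutamide or DHT at these doses. JQ-1 inhibits the BET bromodomain proteins, which read acetylated histones. Both lines derive from LNCaP prostate cancer cells. V16D is the parental, castration-resistant and enzalutamide-sensitive line, and MR49F was selected under long enzalutamide exposure and is resistant to the drug. Each line stands for itself only, and p-values measure the spread between the 3 replicates of a condition. In each comparison of a pair of groups, up to 4 members were picked from those that passed and whose groups did not overlap. For these members the lack of overlap, stated below, follows from the choice and is no result.

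Glycolysis turns glucose into pyruvate and yields ATP without oxygen. It is controlled at hexokinase, phosphofructokinase and pyruvate kinase, and the bifunctional PFKFB enzymes set the level of fructose 2,6-bisphosphate, an activator of phosphofructokinase. Lactate dehydrogenase turns pyruvate into lactate, whereas the pyruvate dehydrogenase complex, which the PDK kinases inhibit, passes it to the mitochondrion. Androgens are known to stimulate glucose and lipid metabolism in prostate cancer cells.

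One property of the deposited gene counts bears on all results in stripped serum. In the 12 full serum libraries 73.0 to 77.8% of the reads tallied fell on genes (13170504 to 21154962 reads per library), against 5.13 to 7.66% in the 18 stripped serum libraries (982130 to 1813262 reads). Of 88 antisense genes whose host had at least 3000 reads in full serum MR49F vehicle, 42 had more reads in stripped than in full serum vehicle, and 0 of their hosts did. Over all genes, stripped serum vehicle had 9.39% as many reads. CERS6-AS1 had 0 reads in full serum and 6402 in stripped serum. The library kit marks strand. Whether the stripped serum counts are of the strand opposite to the gene was not tested, and their agreement with FPKM is no independent check. FPKM (fragments scaled by transcript length and library total, summed here over the transcripts of a gene) were estimated separately and lead below in stripped serum, with the count result beside them. For the 30 members with at least 5 FPKM in both sera, counts per FPKM in stripped serum were 0.0438 to 0.117 of those in full serum. The median was 0.0813 over 7767 genes, with a 5th to 95th percentile of 0.0416 to 0.211. Of members under that level, HK2 (0.176), SLC2A12 (0.173), SLC16A3 (0.342) and FBP1 (0.122) lay above that range of the 30. PFKFB4 (0.0763) and LDHB (0.0566) lay within it. HK2, SLC2A12 and FBP1 lay within the 5th to 95th percentile of the 7767 genes, and SLC16A3 above it. How closely counts follow FPKM across treatments was not tested by this ratio.

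All libraries had the markers of luminal prostate cells, with EPCAM at 45.5 to 88.3 FPKM, while of 13 markers of other cell types PTPRC, CD3E, COL1A2, DCN, KRT5 and TP63 stayed at or below 0.0884 FPKM. The other markers reached 0.17 (CHGA), 0.412 (VWF), 0.768 (PECAM1), 1.77 (COL1A1), 2.67 (ACTA2), 6.42 (CD68) and 9.55 FPKM (SYP). KLK3, the classical androgen-induced gene of the prostate, averaged 509 FPKM in V16D vehicle and 132 FPKM with enzalutamide, and 971 and 941 FPKM in MR49F. In stripped serum it averaged 283 FPKM with vehicle, 799.7 FPKM with enzalutamide, 1258 FPKM with DHT and 7.01 FPKM with JQ-1. Replicate 1 of full serum MR49F vehicle stood apart, with a chi-square per degree of freedom of 9.87 and 11.57 against replicates 2 and 3. All other replicate pairs had 1.13 to 2.82. A value of 1 would be read sampling alone, so most p-values rest on a spread between replicates not far above it. Results that rest on it are given with and without it.

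In stripped serum vehicle the members differed widely in level. GAPDH averaged 1319 FPKM, TPI1 373 FPKM, ALDOA 358 FPKM, ENO1 297 FPKM and PKM, the last enzyme of glycolysis, 266 FPKM. The transporter SLC2A1 (GLUT1) stood at 9.37 FPKM and the inducible hexokinase HK2 at 2.82 FPKM. SLC2A10, FBP1 (a gluconeogenic enzyme) and PDK4 averaged at most 0.11 FPKM in any condition and were tested in no comparison. SLC16A3 (the lactate exporter MCT4) averaged at most 1.93 FPKM. SLC2A3 (GLUT3) reached an average of 1.96 FPKM with DHT and stayed below 1 FPKM elsewhere, and reads of its close paralog SLC2A14 cannot be told apart with certainty. The same holds for GAPDH and PGAM1, which have near-identical copies in the genome.

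**Figure D1:**
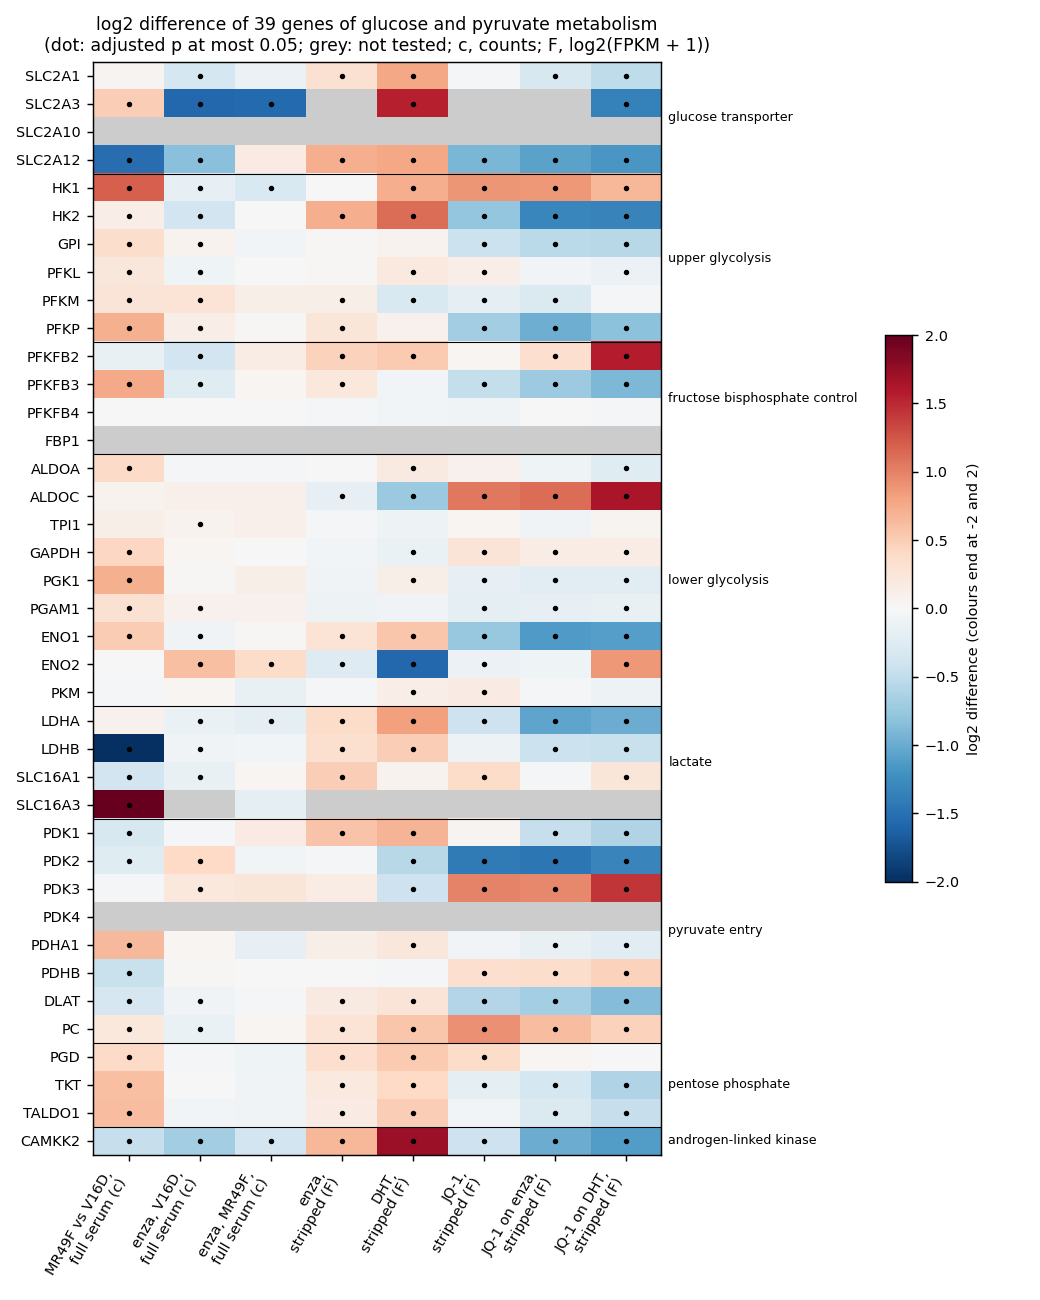
Colour gives the log2 difference of each of the 39 genes (rows, by role) in 8 comparisons (columns), from gene counts in full serum (c) and from log2(FPKM + 1) in stripped serum (F). Dots mark an adjusted p of at most 0.05 and grey marks untested genes. LDHB (-4.41) and SLC16A3 (4.03) lie beyond the colour range in the first column, and in all 3 JQ-1 columns ALDOC and PDK3 are red while HK2, ENO1 and PDK2 are blue.

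The first comparison was of the resistant line with its parent, both in full serum with vehicle. LDHB, the lactate dehydrogenase subunit that favours the use of lactate, was low in MR49F. It had 303, 292 and 288 CPM (counts scaled to the same library total) in the V16D libraries and 11.9, 15 and 14.6 CPM in the MR49F libraries. The lines were far apart, with a log2 difference of -4.41 (SE 0.0759, adjusted p = 1.29e-12) by edgeR's quasi-likelihood test. LDHA, the subunit that favours lactate formation, had 886, 866 and 885 CPM in V16D and 965, 917 and 939 CPM in MR49F, and its log2 difference of 0.09 did not pass (adjusted p = 0.0746). It was 0.08 and passed without replicate 1 of MR49F vehicle (adjusted p = 0.00927). LDHB made up 37.4% ± 0.593 (SD, n = 3) of summed LDHA and LDHB FPKM in V16D vehicle and 2.57% ± 0.364 (SD, n = 3) in MR49F vehicle. In the other MR49F conditions its mean share lay between 2.38 and 4.02%.

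HK1, the hexokinase found in most tissues, was higher in MR49F, with 107, 100 and 99.4 CPM in V16D and 268, 221 and 214 CPM in MR49F. Its log2 difference was 1.19 (SE 0.0773, adjusted p = 1.11e-07). SLC2A12 (GLUT12), a glucose transporter, had 45.2, 43.4 and 47.2 CPM in V16D and 16.8, 13.9 and 16.9 CPM in MR49F, with a log2 difference of -1.53 (SE 0.0818, adjusted p = 2.42e-08). SLC16A3 had 0.258, 0.475 and 0.184 CPM in V16D and 5.92, 5.13 and 4.51 CPM in MR49F. It had 4, 8 and 3 reads in V16D and passed the filter on low counts only through MR49F, so no test is given for it. In all 3 of these genes the lines did not overlap.

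By role, all 6 genes of upper glycolysis and all 3 pentose phosphate genes were higher in MR49F, with PFKP, a phosphofructokinase, at 0.70 and the transaldolase TALDO1 at 0.62 on the log2 scale. In lower glycolysis 5 of 9 genes were higher, among them PGK1 (0.71) and ENO1 (0.51), and none was lower. When replicate 1 of MR49F vehicle was left out, PKM passed as lower (-0.09, adjusted p = 0.005) and TPI1 as higher (0.19). Of 7 tested genes of pyruvate entry, PDHA1 (0.66) and PC (0.21) were higher and PDHB, DLAT, PDK1 and PDK2 lower (-0.45 to -0.24). In total 27 of 36 tested genes passed an adjusted p of 0.05, 19 higher and 8 lower, with SLC16A3 among the former, against 63.7% of all 14013 genes tested. At 1.5-fold or more, a limit added after the data were seen, 10 passed, SLC16A3 among them, against 25.8% of all genes. The median log2 difference was 0.17 over the members and 0.00 over all genes. Without replicate 1 of MR49F vehicle 30 members passed, these 27 among them, and LDHB stood at -4.30 and HK1 at 1.09.

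The second comparison was of enzalutamide with vehicle in full serum. In V16D, CAMKK2 fell from 167, 171 and 167 CPM to 104, 109 and 99.97 CPM. The groups did not overlap, and the log2 difference was -0.69 (SE 0.0319, adjusted p = 7.34e-81). SLC2A12 fell from 45.2, 43.4 and 47.2 CPM to 26.2, 24.1 and 25.7 CPM, a log2 difference of -0.84 (SE 0.0543, adjusted p = 1.69e-45). ENO2, the neuronal enolase, rose from 19.2, 20.6 and 19.6 CPM to 29.9, 31.6 and 29.1 CPM, a log2 difference of 0.60 (SE 0.0632, adjusted p = 3.04e-19). PDK2, a kinase that inhibits pyruvate dehydrogenase, rose from 22.9, 25.1 and 24.3 CPM to 32.5, 33.4 and 29.8 CPM, a log2 difference of 0.40 (SE 0.0596, adjusted p = 4.16e-10). In all 4 genes every enzalutamide library lay on one side of every vehicle library, as their choice required.

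Most other changes in V16D were small. All 3 tested glucose transporters fell, as did all 3 tested lactate genes (SLC16A1, the lactate carrier MCT1, at -0.14, LDHA at -0.13 and LDHB at -0.07). In upper glycolysis PFKM, PFKP and GPI rose (0.27, 0.13 and 0.07) while HK2, HK1 and PFKL fell (-0.38, -0.16 and -0.08). None of the 3 pentose phosphate genes passed the test. Together 23 of 35 tested genes passed, 8 higher and 15 lower, against 37.5% of 14079 genes. With all groups in one fit 14 passed, with limma on log2(FPKM + 1) 15, of which 7 were higher and 8 lower, and with a two-group test of equal variances 11. Over all genes, too, that two-group test called fewer, 0.203 to 0.645 times the main count over 8 comparisons. No share over all genes is given for the limma fit. At 1.5-fold or more SLC2A3, SLC2A12, CAMKK2 and ENO2 passed, 4 genes, against 6.74% of all genes.

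In MR49F in full serum 5 of 36 tested genes passed, 1 higher and 4 lower, against 8.48% of 13927 genes, and at 1.5-fold or more only SLC2A3 did (-1.56), against 1.54%. CAMKK2 fell from 123, 121 and 124 CPM to 87.5, 98.3 and 95.2 CPM, a log2 difference of -0.38 (SE 0.0518, adjusted p = 0.00117). LDHA fell from 965, 917 and 939 CPM to 836, 829.6 and 814 CPM, a log2 difference of -0.18 (SE 0.0407, adjusted p = 0.0217). HK1 fell from 268, 221 and 214 CPM to 189.7, 190.4 and 186 CPM, a log2 difference of -0.31 (SE 0.0735, adjusted p = 0.0289), and here replicate 1 of vehicle was the highest library. ENO2 rose from 16.5, 21.2 and 21.2 CPM to 24.9, 25.7 and 25.4 CPM, a log2 difference of 0.36 (SE 0.0922, adjusted p = 0.0352), and here the same library was the lowest. The groups of these 4 genes did not overlap. Without replicate 1 of vehicle 9 genes passed, these 5 among them, and HK1 stood at -0.20 and ENO2 at 0.26. Leaving out any 1 of the enzalutamide libraries left 2 calls, without HK1, ENO2 and LDHA, and leaving out replicate 2 of vehicle left 3, without HK1 and ENO2.

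The change under enzalutamide differed between the lines for 6 of 36 tested genes by edgeR's interaction term, against 6.95% of 14471 genes. For SLC2A12 the log2 change was -0.84 in V16D and 0.17 in MR49F, a difference of 1.00 (SE 0.1, adjusted p = 6.55e-07). PFKFB2, a PFKFB isoform known from heart, had a log2 change of -0.39 in V16D and 0.15 in MR49F, a difference of 0.53 (SE 0.0905, adjusted p = 0.000554). Without replicate 1 of MR49F vehicle the change of PFKFB2 in MR49F was 0.05 and the difference 0.43. HK2 had -0.38 in V16D and 0.00 in MR49F, a difference of 0.37 (SE 0.0606, adjusted p = 0.00032). CAMKK2 (0.30) and PFKFB3 (0.26) also had a more negative change in V16D, and PDK2 had the opposite sign, with -0.47 (SE 0.0977, adjusted p = 0.0038). PFKFB3 lost its call with DESeq2 (adjusted p = 0.0802) and without any 1 of 8 of the 12 libraries, and with limma on FPKM PDK2 and CAMKK2 did not pass either (adjusted p = 0.0751 and 0.0639). Without replicate 1 of MR49F vehicle 12 genes passed, these 6 among them.

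**Figure D2:**
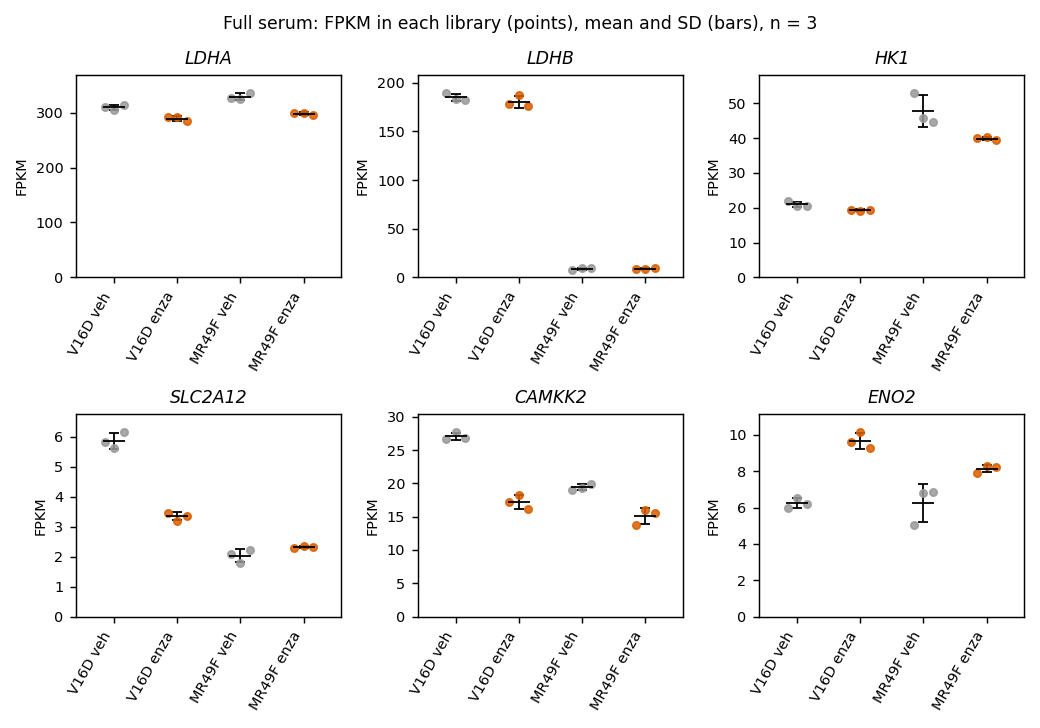
Points are FPKM of single libraries of V16D and MR49F in full serum with vehicle (grey) or enzalutamide (orange), and bars are the mean and SD of 3. LDHB averages 185 FPKM in V16D vehicle and 8.69 FPKM in MR49F vehicle, HK1 has the opposite order, and CAMKK2 is lower with enzalutamide in both lines.

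The third comparison was of enzalutamide with vehicle in MR49F in stripped serum, where most of the members that passed were higher with the drug. HK2 went from 2.82, 2.76 and 2.88 FPKM with vehicle to 5.21, 5.24 and 5.48 FPKM with enzalutamide, a difference of 0.72 (SE 0.0495, adjusted p = 1.09e-05) on the log2(FPKM + 1) scale by limma. This scale understates the change of low genes. SLC2A12 went from 3.85, 3.75 and 3.54 FPKM to 6.85, 6.79 and 6.83 FPKM, a difference of 0.73 (SE 0.0485, adjusted p = 9.16e-06). CAMKK2 went from 15.6, 15.7 and 15.4 FPKM to 27.2, 23.9 and 24.4 FPKM, a difference of 0.66 (SE 0.0538, adjusted p = 2.81e-05). PDK1, a PDK kinase that hypoxia induces, went from 8.03, 8.03 and 7.47 FPKM to 11.8, 11.9 and 12.6 FPKM, a difference of 0.57 (SE 0.0483, adjusted p = 3.63e-05). In all 4 genes every enzalutamide library lay above every vehicle library.

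In total 20 of 34 tested genes passed, 18 higher and 2 lower (ALDOC, -0.17, and ENO2, -0.26), against 38.7% of 12178 genes. At 1.5-fold or more SLC2A12, HK2 and CAMKK2 passed, against 3.8% of all genes. Both tested transporters rose, as did all 3 tested lactate genes (SLC16A1 0.50, LDHA 0.36 and LDHB 0.33), all 3 pentose phosphate genes (PGD 0.34) and 3 of 7 genes of pyruvate entry (PDK1, PC and DLAT). In lower glycolysis ENO1 rose (0.28), 2 genes fell and 6 did not pass. PKM had 255, 272 and 272 FPKM with vehicle and 282, 258 and 251 FPKM with enzalutamide, and the groups overlapped. The median difference was 0.15 over the members and -0.01 over all genes. By edgeR on the counts 7 of 33 genes passed, all higher (PDK1, SLC16A1, CAMKK2, HK2, SLC2A12, LDHA and PGD), against 7.26% of 11131 genes. DESeq2 called 2 on the same counts, and over all genes it called 0.453 to 0.898 times as many as edgeR over 12 comparisons. Leaving out any library other than replicate 3 of enzalutamide left 3 or 4 calls by edgeR.

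The enzalutamide change of MR49F in stripped serum was set against that in full serum by limma's interaction term on log2(FPKM + 1). It passed for 14 of 35 tested genes, against 34.1% of 12981 genes, with a change more positive in stripped serum for 12 of them. The difference of changes was 1.00 (SE 0.0828, adjusted p = 8.73e-06) for CAMKK2, which fell in full and rose in stripped serum. It was 0.69 (SE 0.0504, adjusted p = 3.69e-06) for HK2 and 0.60 (SE 0.0737, adjusted p = 0.000147) for SLC2A12. LDHA (0.50) and SLC2A1 (0.38) also passed, and ENO2 had the opposite sign, with -0.60 (SE 0.128, adjusted p = 0.00449). With edgeR on the counts SLC2A12 (0.36, adjusted p = 0.159), ALDOC (-0.19, adjusted p = 0.545) and PDHA1 (0.40, adjusted p = 0.0547) did not pass. HK1 and TKT each lost their call without any 1 of 5 libraries and TALDO1 without any 1 of 4, with adjusted p of 0.0502 to 0.0687. Without replicate 1 of full serum vehicle 20 genes passed, these 14 among them. Serum and experiment cannot be told apart.

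The fourth comparison was of DHT with vehicle in stripped serum. CAMKK2 rose from 15.6, 15.7 and 15.4 FPKM to 52.7, 52.3 and 55.8 FPKM, 3.44-fold in the means, with a difference of 1.72 (SE 0.0393, adjusted p = 4.36e-09). HK2 rose from 2.82, 2.76 and 2.88 FPKM to 7.92, 7.01 and 6.94 FPKM, a difference of 1.12 (SE 0.0572, adjusted p = 4.84e-07). SLC2A3 was listed at 0 in all 3 vehicle libraries and had 1.86, 1.92 and 2.08 FPKM with DHT. It passed the filter on low values only through the DHT libraries, so no test is given for it here or below. ENO2 fell from 26.4, 29.1 and 26.9 FPKM to 8.68, 8.70 and 8.43 FPKM, a difference of -1.57 (SE 0.0466, adjusted p = 1.78e-08). The groups of these 4 genes did not overlap.

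LDHA rose under DHT from 106, 119 and 122 FPKM to 203, 204 and 206 FPKM (0.82). SLC2A1 rose from 9.35, 9.20 and 9.56 FPKM to 17.3, 16.7 and 16.1 FPKM (0.77). Both genes were without overlap. Isoenzymes of the same step parted: ENO1 rose (0.56) while ENO2 fell, ALDOA rose (0.18) while ALDOC, the brain aldolase, fell (-0.75), and PDK1 rose (0.67) while PDK2 (-0.56) and PDK3 (-0.42) fell. HK1 (0.72) and pyruvate carboxylase PC (0.56) rose as well.

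By role, the transporters SLC2A1 and SLC2A12, all 3 pentose phosphate genes and 2 of 3 tested lactate genes rose with DHT. In total 27 of 35 passed, 21 higher and 6 lower, with SLC2A3 among the former, against 72.1% of 12180 genes. At 1.5-fold or more 10 passed, SLC2A3 among them, against 21.2%. The median difference was 0.20 over the members and -0.08 over all genes. Scaling FPKM by the median of ratios moved the median of all genes by 0.123, and GAPDH, which passed at -0.13 without it, then had 0.01 (adjusted p = 0.925). By counts 20 of 33 passed, 17 higher and 3 lower, against 37.5% of 11004 genes.

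DHT and enzalutamide were also set directly against each other in stripped serum. CAMKK2, with 27.2, 23.9 and 24.4 FPKM under enzalutamide, was higher in every DHT library, with a difference of 1.06 (SE 0.056, adjusted p = 6.61e-07). HK1 had 32.7, 33.8 and 31.4 FPKM with enzalutamide and 53.9, 53.5 and 54.6 FPKM with DHT, a difference of 0.71 (SE 0.0417, adjusted p = 1.31e-06). ENO2 had 21.5, 23.3 and 23.8 FPKM with enzalutamide, above every DHT library, a difference of -1.31 (SE 0.0496, adjusted p = 8.89e-08). SLC2A3 had 0.0112, 0.0107 and 0.0125 FPKM with enzalutamide, below every DHT library. SLC2A12 had 6.85, 6.79 and 6.83 FPKM with enzalutamide and 7.06, 6.97 and 7.20 FPKM with DHT, and its difference of 0.05 did not pass (adjusted p = 0.4). SLC16A1 was lower with DHT than with enzalutamide (-0.42). Altogether 22 of 35 passed, 15 higher and 7 lower with DHT, SLC2A3 among the former, against 57.4% of 12029 genes. At 1.5-fold or more 4 passed, again with SLC2A3, against 10.6%. After scaling by the median of ratios 30 passed, 23 higher and 7 lower. That scaling moved the median of all genes by 0.095, and no share over all genes is given for it. By counts 11 of 33 passed, against 19.4% of 10916 genes, and 7 without replicate 2 of DHT. The doses of the agents differ, and both were compared with the same vehicle libraries above.

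**Figure D3:**
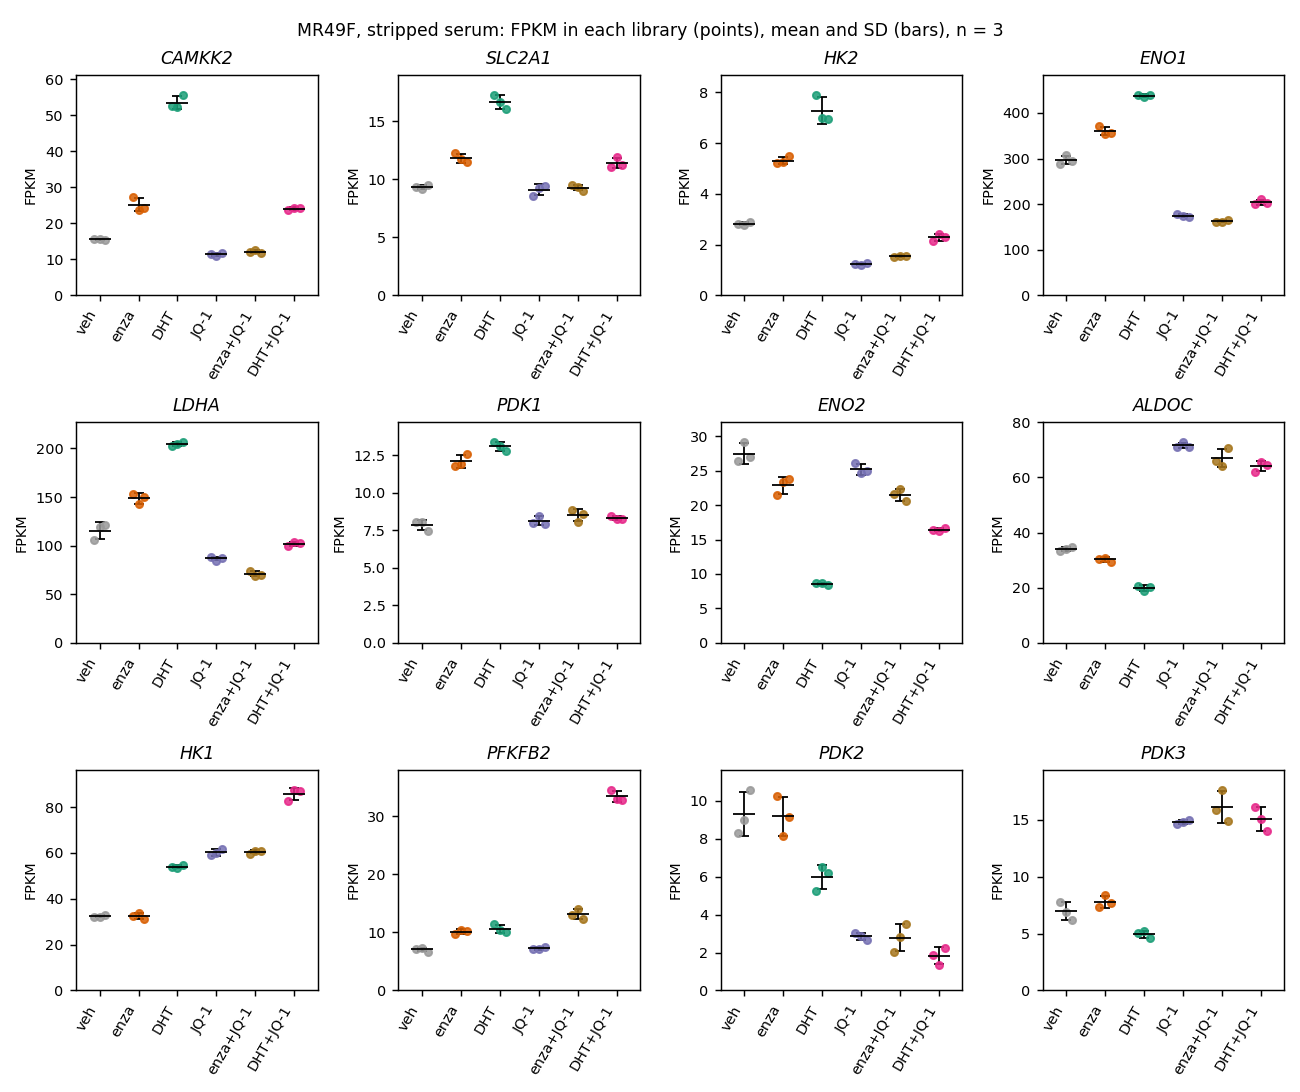
Points are FPKM of single MR49F libraries in stripped serum, and bars are the mean and SD of 3, for 12 genes in 6 treatments. CAMKK2, SLC2A1, HK2, ENO1, LDHA and PDK1 are highest with DHT, ALDOC and PDK3 are high in all JQ-1 groups, and PFKFB2 averages 33.4 FPKM with DHT and JQ-1 together.

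The fifth comparison was of JQ-1 with vehicle. PDK2 fell from 8.32, 9.001 and 10.6 FPKM to 3.04, 2.87 and 2.67 FPKM, a difference of -1.41 (SE 0.0808, adjusted p = 1.07e-06). SLC2A12 fell from 3.85, 3.75 and 3.54 FPKM to 1.54, 1.39 and 1.54 FPKM, a difference of -0.92 (SE 0.0542, adjusted p = 1.25e-06). ALDOC rose from 33.4, 34.1 and 34.9 FPKM to 71.2, 72.8 and 71.01 FPKM, a difference of 1.05 (SE 0.0314, adjusted p = 3.91e-08). PDK3 rose from 7.79, 6.90 and 6.20 FPKM to 14.6, 14.8 and 14.9 FPKM, a difference of 0.99 (SE 0.0678, adjusted p = 2.86e-06). The groups of these 4 genes did not overlap. HK2 (-0.77) and ENO1 (-0.76) fell, whereas PC (0.92) and HK1 (0.88) rose.

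In total 25 of 34 passed with JQ-1 alone, 10 higher and 15 lower, against 75.1% of 12203 genes, and 10 at 1.5-fold or more, against 22.8%. After scaling by the median of ratios the split was 14 higher and 12 lower. That scaling moved the median of all genes by 0.083, and no share over all genes is given for it. By counts 21 of 34 passed, 12 higher and 9 lower, with SLC16A3 among the former, against 46.6% of 11332 genes. SLC16A3 passed the filter on low counts only through the JQ-1 libraries, so no test is given for it. SLC16A3 had 1.38 in the counts but 0.318, 0.601 and 0.348 FPKM with vehicle and 0.123, 0.172 and 0.192 FPKM with JQ-1, so the scales had opposite signs and no direction is given. The same held when JQ-1 was added to enzalutamide (1.63 in the counts, 0.419, 0.322 and 0.304 FPKM without and 0.202, 0.185 and 0.249 FPKM with JQ-1). The summed FPKM of 13 markers of other cell types was 5.61 to 7.01 in the stripped serum groups without JQ-1 and 9.78 to 13.2 in those with it. SYP, a neuroendocrine marker, rose with JQ-1 alone by 2.08 on the log2(FPKM + 1) scale, and CD68, a macrophage marker, fell (-0.48). The part of these markers in the results with JQ-1 was not tested.

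When JQ-1 was added to enzalutamide, HK2 fell from 5.21, 5.24 and 5.48 FPKM to 1.51, 1.56 and 1.56 FPKM, a difference of -1.31 (SE 0.0522, adjusted p = 8.25e-08). ENO1 fell from 371, 355 and 355 FPKM to 162, 161 and 166 FPKM, a difference of -1.14 (SE 0.0368, adjusted p = 3e-08). PDK2 fell from 10.2, 8.16 and 9.14 FPKM to 2.03, 2.84 and 3.49 FPKM, a difference of -1.44 (SE 0.134, adjusted p = 1.17e-05). The groups were separate in all 3. ALDOC rose from 30.5, 30.9 and 29.4 FPKM to 66, 64.2 and 70.7 FPKM, a difference of 1.12 (SE 0.0455, adjusted p = 9.12e-08), also without overlap. LDHA (-1.05) and CAMKK2 (-0.99) fell. In all 26 of 34 passed, 7 higher and 19 lower, against 75.7% of 12148 genes, and 13 at 1.5-fold or more, against 26.5%. All genes leaned the same way, with 3795 higher and 5398 lower. The median difference was -0.19 over the members and -0.08 over all genes, and scaling by the median of ratios moved the latter by 0.093. By counts 21 of 34 passed, against 45.1% of 10863 genes. SLC16A3 is among those higher by counts, and again passed the filter only through the libraries with JQ-1. With JQ-1 alone and with JQ-1 added to enzalutamide, the share of members that passed by FPKM was thus close to that of all genes. It was somewhat higher for DHT (77.1 against 72.1%) and DHT against enzalutamide (62.9 against 57.4%). The same held for JQ-1 added to DHT (85.7 against 78.8%) and the interaction of serum and enzalutamide (40 against 34.1%). These shares are not read as results about the members.

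When JQ-1 was added to DHT, PFKFB2 rose from 11.4, 10.4 and 10.1 FPKM to 34.6, 32.9 and 32.8 FPKM, a difference of 1.56 (SE 0.0502, adjusted p = 5.22e-08). ALDOC rose from 20.8, 18.9 and 20.2 FPKM to 61.9, 65.5 and 64.6 FPKM, a difference of 1.63 (SE 0.0451, adjusted p = 2.85e-08). PDK3 rose from 5.04, 5.20 and 4.57 FPKM to 16.1, 15.1 and 14.1 FPKM, a difference of 1.44 (SE 0.0622, adjusted p = 2.22e-07). In all 3 genes the groups were separate. SLC2A3 had 1.86, 1.92 and 2.08 FPKM with DHT and 0.210, 0.148 and 0.126 FPKM with both, without overlap. HK2 (-1.34), PDK2 (-1.31), CAMKK2 (-1.12), ENO1 (-1.09) and LDHA (-0.99) fell.

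SLC2A1 and SLC2A12 fell when JQ-1 was added to DHT, as did 4 of 6 genes of upper glycolysis, while HK1 rose (0.66). In total 30 of 35 passed, 9 higher and 21 lower, with SLC2A3 among the latter, against 78.8% of 11856 genes. At 1.5-fold or more 17 passed, again with SLC2A3, against 31.5%. The median difference was -0.23 over the members and -0.05 over all genes. By counts 23 of 33 passed, against 54.7% of 10779 genes. PKM had 279.7, 296 and 304 FPKM with DHT and 262, 274 and 288 FPKM with DHT and JQ-1, overlapping groups with a difference of -0.09 (adjusted p = 0.114).

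Interaction terms asked whether the change under DHT or enzalutamide differed with and without JQ-1. For DHT 24 of 35 genes passed, 5 higher and 19 lower, with SLC2A3 among the latter, against 48% of 12469 genes. By counts 11 of 34 passed, against 12.3% of 11572 genes, and 7 without replicate 1 of DHT with JQ-1 or replicate 3 of JQ-1. PFKFB2 had an interaction of 1.53 (SE 0.068, adjusted p = 1.01e-08), with a DHT change of 0.53 without JQ-1 and 2.06 with it, and it passed on the counts too (1.69). ENO2 had 0.98 (SE 0.0557, adjusted p = 8.2e-08), with a DHT change of -1.57 without and -0.59 with JQ-1. CAMKK2 had -0.70 (SE 0.0479, adjusted p = 3.71e-07), and it went from 11.6, 10.99 and 11.7 FPKM with JQ-1 to 23.8, 24.4 and 24.2 FPKM with DHT and JQ-1, without overlap. PDK1 (-0.64), LDHA (-0.59) and HK2 (-0.56) also had a smaller rise with JQ-1.

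For enzalutamide 15 of 34 genes passed the interaction with JQ-1, 1 higher and 14 lower, against 19.2% of 12454 genes. LDHA had -0.65 (SE 0.071, adjusted p = 0.000102), CAMKK2 -0.58 (SE 0.0668, adjusted p = 0.000145), HK2 -0.54 (SE 0.0601, adjusted p = 0.000111) and PDK1 -0.51 (SE 0.0647, adjusted p = 0.000269). PFKFB2 was the gene with a positive term (0.31), with 7.18, 7.06 and 7.52 FPKM under JQ-1 and 13.02, 14.02 and 12.3 FPKM under enzalutamide with JQ-1. By counts LDHA passed alone (-0.71, adjusted p = 0.00426), 1 of 34, against 0.895% of 11625 genes, and 2 passed without replicate 3 of enzalutamide.

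The change under DHT with JQ-1 shares no library with the change without it. Of 32 members that reached 5 FPKM, 28 changed less in size with JQ-1 under DHT and 23 under enzalutamide. These were 87.5 and 71.9% of the members, against 70.3 and 64.8% of 9483 genes of that level. The median change under DHT was 0.19 without and 0.00 with JQ-1, and under enzalutamide 0.15 and -0.03.

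**Figure D4:**
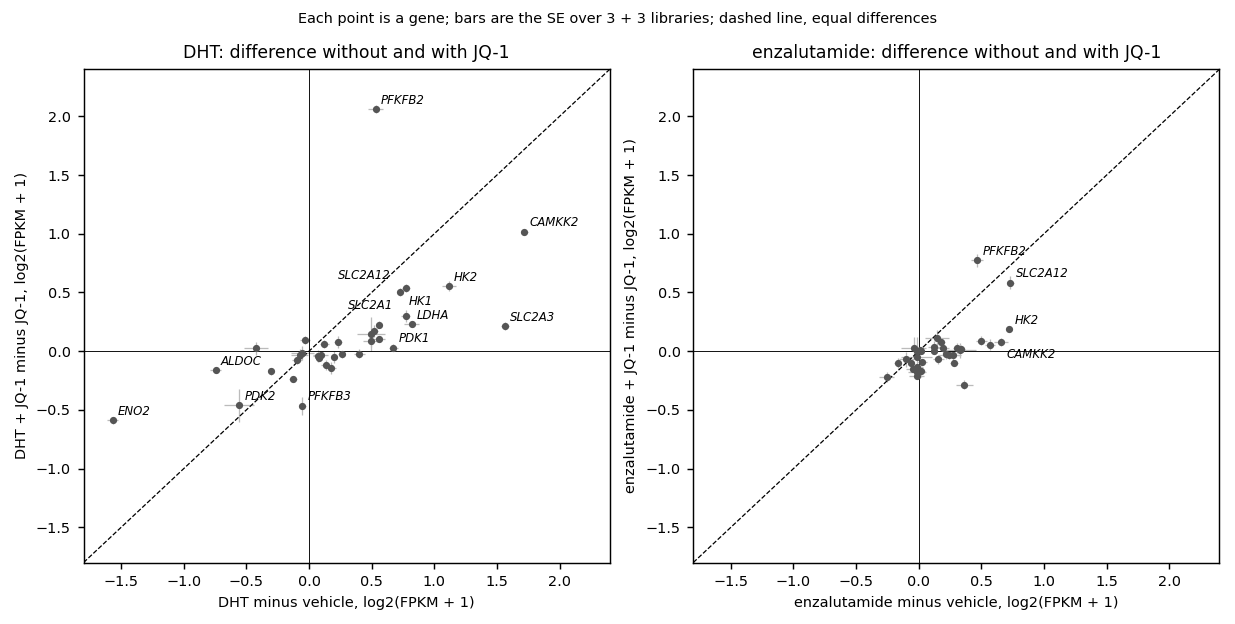
Each point is a gene of the set. The horizontal axis is the difference under DHT (left) or enzalutamide (right) without JQ-1 and the vertical axis the difference with JQ-1, both on the log2(FPKM + 1) scale, with bars for the SE over 3 and 3 libraries. Under DHT 28 of 32 members that reached 5 FPKM lie closer to 0 with JQ-1, and PFKFB2 lies above the dashed line of equal differences in both panels.

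Isoenzymes were also followed as shares of the summed FPKM of their family. ENO2 made up 8.47% of ENO1 and ENO2 with vehicle in stripped serum, 1.93% with DHT, 12.6% with JQ-1 and 7.44% with both. ALDOC made up 8.71% of ALDOA and ALDOC with vehicle, 4.70% with DHT and 15.9% with JQ-1. PFKFB2 made up 40.7% of PFKFB2, PFKFB3 and PFKFB4 with vehicle, 51.95% with DHT, 47.4% with JQ-1 and 83.5% with both. PDK1 made up 32.5% of the PDK genes with vehicle and 54.5% with DHT, and PDK3 28.9% with vehicle and 57.4% with JQ-1. HK2 made up 31.97% of HK1 and HK2 in V16D vehicle, 18.5% in MR49F vehicle in full serum, 8.03% in stripped serum and 2.005% with JQ-1.

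Other genes of these pathways were counted from lists, by FPKM, where 72.1% of all genes passed with DHT, 75.1% with JQ-1 alone and 78.8% with JQ-1 added to DHT. The lists are short, and nothing particular to them is read from their counts. Of 5 tested genes of other lactate and pyruvate transport, 1 rose and 3 fell with DHT, led by MPC2, a subunit of the mitochondrial pyruvate carrier (1.93), and EMB, a partner of lactate carriers (-1.10). Of 5 other tested genes of the pyruvate dehydrogenase complex and its regulators, 2 rose and 3 fell with DHT, led by PDP1 (-0.75), a phosphatase that activates the complex. Of 5 other tested pentose phosphate genes 3 rose and 2 fell, and 0 of 3 other tested glucose transporters rose while 3 fell, led by SLC2A6 (-0.96). Of 9 tested genes of other glycolytic and gluconeogenic enzymes, 3 rose and 4 fell with DHT. Of 16 tested hypoxia targets outside glycolysis, 6 rose and 10 fell with DHT, led by NDRG1 (3.20) and EGLN3 (-1.30), and with JQ-1 alone 9 rose and 4 fell. Of 13 tested regulators of the pathway, 1 rose and 9 fell with DHT, and 6 rose and 3 fell with JQ-1 alone. The largest changes with JQ-1 alone were rises of TXNIP (2.02) and ARRDC4 (1.70), arrestins that restrain glucose uptake. When JQ-1 was added to DHT, 7 of 12 tested regulators rose and 5 fell, and MYC had -1.99.

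The 2 scales were also set side by side in stripped serum. HK2 and PDK2 were further from 0 with JQ-1 alone in the counts (-1.39 and -1.94) than on the log2(FPKM + 1) scale (-0.77 and -1.41).

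**Figure D5:**
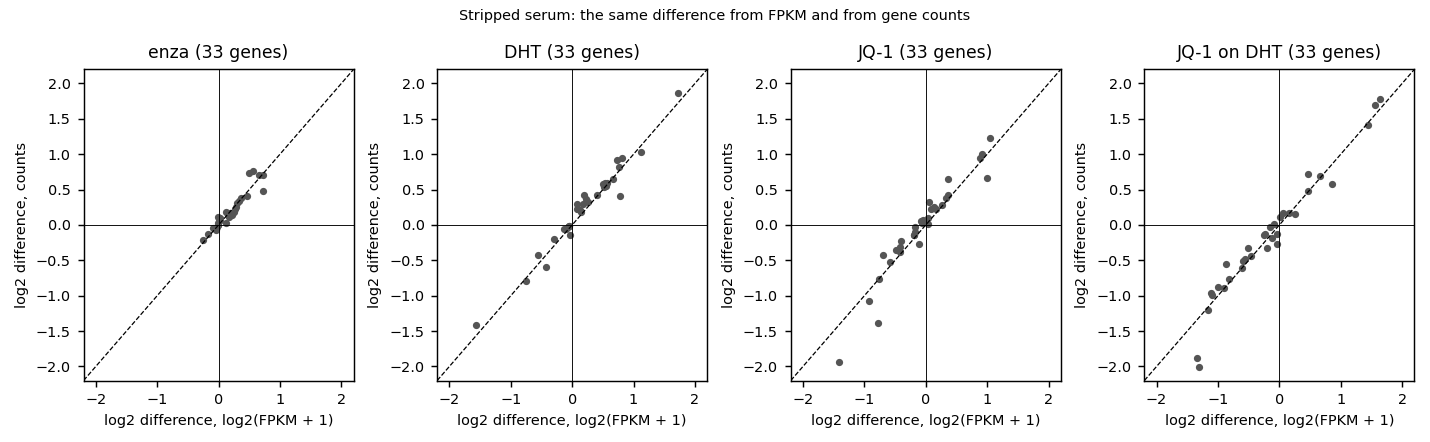
Each point is one of 33 genes of the set in stripped serum. The horizontal axis is its difference on the log2(FPKM + 1) scale and the vertical axis its log2 difference from gene counts, for enzalutamide, DHT, JQ-1 and JQ-1 added to DHT, with a dashed line of equality. The lowest points of the third panel are PDK2 (-1.94 in counts) and HK2 (-1.39), which lie below the line.

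Promoter sequences are shown for LDHA and LDHB, the pair that parted between the lines, and for ENO1 and ALDOC, which moved in opposite directions with DHT and with JQ-1. RefSeq windows of 300 bases, from 250 before to 50 after the gene start (GRCh38.p14) matched 36 of the 39 genes, all but SLC2A3, PFKFB2 and SLC16A1. The LDHA window is chr11:18394313-18394612 on the plus strand, and those of LDHB, ENO1 and ALDOC, on the minus strand, are chr12:21657793-21658092, chr1:8878637-8878936 and chr17:28576846-28577145. Capitals mark ACGTG, the core of the hypoxia response element, or CACGT, its reverse complement. CACGTG, the E-box bound by MYC, holds both and counts on both strands.
LDHA: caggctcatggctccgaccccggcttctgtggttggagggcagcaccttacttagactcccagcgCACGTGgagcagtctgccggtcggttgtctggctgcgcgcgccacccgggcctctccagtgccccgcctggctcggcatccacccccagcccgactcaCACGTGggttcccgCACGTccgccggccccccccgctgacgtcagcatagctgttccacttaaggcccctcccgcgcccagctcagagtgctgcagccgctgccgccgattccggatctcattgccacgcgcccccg
LDHB: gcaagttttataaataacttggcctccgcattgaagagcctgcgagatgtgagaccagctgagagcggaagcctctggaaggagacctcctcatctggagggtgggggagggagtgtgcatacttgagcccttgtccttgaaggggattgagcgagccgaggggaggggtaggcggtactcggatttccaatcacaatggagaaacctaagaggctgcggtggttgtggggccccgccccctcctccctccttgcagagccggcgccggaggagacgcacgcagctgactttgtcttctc
ENO1: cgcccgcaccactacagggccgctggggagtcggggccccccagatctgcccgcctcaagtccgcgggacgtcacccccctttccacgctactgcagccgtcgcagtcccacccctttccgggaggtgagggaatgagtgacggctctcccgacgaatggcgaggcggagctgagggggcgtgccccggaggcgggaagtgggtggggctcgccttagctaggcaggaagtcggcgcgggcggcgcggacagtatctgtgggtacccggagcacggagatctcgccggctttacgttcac
ALDOC: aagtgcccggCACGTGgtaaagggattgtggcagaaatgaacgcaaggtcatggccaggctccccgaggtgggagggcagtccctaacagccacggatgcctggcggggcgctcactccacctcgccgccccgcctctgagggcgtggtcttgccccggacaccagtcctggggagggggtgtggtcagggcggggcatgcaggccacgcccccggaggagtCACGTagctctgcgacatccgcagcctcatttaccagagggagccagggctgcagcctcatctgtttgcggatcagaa

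The LDHA window held 5 matches, including 2 E-boxes, and the ALDOC window 3, including 1 E-box. The windows of LDHB and ENO1 held 0, as did a further LDHA window. Of the 66 windows of the set 37.9% held the core, in 21 genes, against 21.4% of all 35116 windows, and the median number of CpG was 28 in the set and 14 in all windows. A match of letters is a description and no binding site. In GENCODE v44 lifted to GRCh37, the build of the files, LDHA spans bases 18416107 to 18429972 of chromosome 11, LDHB 21788276 to 21910791 of chromosome 12, ENO1 8921059 to 8939249 of chromosome 1, ALDOC 26900133 to 26903966 of chromosome 17 and CAMKK2 121675478 to 121736111 of chromosome 12. All values here are for whole genes.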

How the data were processed

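Per the labels, libraries were made with a strand-specific kit and aligned to hg19 with TopHat2 2.0.9. The authors counted reads per gene with HTSeq, and the deposited files hold raw counts. The deposited FPKM values come from Cufflinks 2.1.1, per transcript, for 43497 transcripts, and were summed per gene symbol here. Full serum was tested on counts with edgeR 4.0.16 (R 4.3.3, quasi-likelihood, filterByExpr). Stripped serum was tested on log2(FPKM + 1) with limma 3.58.1 over genes that reached 1 FPKM in 3 or more samples, and on counts with edgeR. P-values were adjusted by Benjamini-Hochberg over all genes tested. Scripts were tested on simulated data. DESeq2 1.42.0, other scalings, filters and pseudocounts, a replicate block and leaving out libraries were tried. Values were given in every sample for the 4 members with the largest change among those called, without overlap and with at least 5 CPM or 1 FPKM in the higher group, and for PKM, LDHA and SLC2A1; other genes singled out were chosen after their values were seen. The members and lists were chosen with earlier results of these data known. Depth was 13170504 to 21154962 reads on genes in full serum and 982130 to 1813262 in stripped serum. Some items are not reported here.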

Additional observations from a re-analysis of the deposited data

Results flagged for a closer look

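The response to enzalutamide in full serum differed between MR49F and V16D for 6 of 36 tested genes by edgeR's interaction term, against 6.95% of 14471 genes. The log2 change in MR49F minus that in V16D was: SLC2A12 (1.00), HK2 (0.37), PFKFB2 (0.53), PFKFB3 (0.26), PDK2 (-0.47), CAMKK2 (0.30). PFKFB3 lost this call with DESeq2, with limma on FPKM and with 1 of several libraries left out. PDK2 and CAMKK2 lost it with limma on FPKM. Between stripped and full serum the response of MR49F differed for 14 of 35 tested genes by limma's interaction term, against 34.1% of 12981 genes. The difference of changes on the log2(FPKM + 1) scale, stripped minus full serum, was: SLC2A1 (0.38), SLC2A12 (0.60), HK1 (0.26), HK2 (0.69), ALDOC (-0.30), ENO2 (-0.60), LDHA (0.50), SLC16A1 (0.42), PDK1 (0.37), PDHA1 (0.24), PGD (0.37), TKT (0.21), TALDO1 (0.18), CAMKK2 (1.00). On the counts SLC2A12, ALDOC and PDHA1 lost this call, and HK1, TKT and TALDO1 each lost it without any 1 of 4 or 5 libraries. Serum and experiment cannot be told apart.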

How the results depend on the processing

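Of the member counts, 107 of 136 under other settings and 147 of 162 with 1 library left out stayed within 1.5 times the reported count. The cause was not tested for those that did not, except that the 1.5-fold limit can only lower a count.

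With all groups of an experiment in one fit, enzalutamide called 14 members in V16D and 9 in MR49F in full serum. With limma on log2(FPKM + 1) these were 15 and 1, and the interaction of line and drug called 3. No share over all genes is given for these limma fits. A two-group test with equal variances after removing the least variable genes called 11 and 1 in full serum on log2(FPKM + 1), and on variance-stabilized stripped serum counts 0 for enzalutamide (8 at an unadjusted p under 0.05 by edgeR, 7 adjusted), 10 for DHT, 3 for DHT against enzalutamide and 10 for JQ-1. DESeq2 called 2 members for enzalutamide, 7 for DHT against enzalutamide and 5 for the interaction of DHT and JQ-1 on stripped serum counts. Calls over all genes moved as well. Relative to the main test they were 0.453 to 0.898 times as many with DESeq2 over 12 comparisons. The two-group test gave 0.203 to 0.645 times as many over 8, and all groups in one fit 0.695 to 2.166 times over 12.

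With the 1.5-fold limit the full serum counts were 4 for enzalutamide in V16D, 1 in MR49F and 10 between the lines. In stripped serum, by counts and by FPKM, they were 4 and 3 for enzalutamide, 11 and 10 for DHT, 5 and 4 for DHT against enzalutamide, 10 and 10 for JQ-1, 12 and 13 for JQ-1 added to enzalutamide, and 14 and 17 for JQ-1 added to DHT. By counts, SLC16A3 is among the 10 between the lines, the 10 for JQ-1 and the 12 for JQ-1 added to enzalutamide. By FPKM, SLC2A3 is among the 10 for DHT, the 4 for DHT against enzalutamide and the 17 for JQ-1 added to DHT. In these comparisons each passed the filter on low values only through the libraries where it is high. For the stripped serum counts no share over all genes was taken at this limit.

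With 1 library left out, the member counts ranged as follows for V16D enzalutamide full serum 17 to 22 (counts), MR49F enzalutamide full serum 2 to 9 (counts), MR49F against V16D vehicle full serum 24 to 30 (counts), cell line by enzalutamide interaction full serum 5 to 12 (counts), enzalutamide stripped serum 3 to 8 (counts) and 15 to 18 (FPKM), DHT stripped serum 15 to 19 (counts) and 24 to 26 (FPKM), DHT against enzalutamide stripped serum 7 to 11 (counts) and 19 to 23 (FPKM), JQ-1 stripped serum 18 to 22 (counts) and 23 to 25 (FPKM), JQ-1 added to enzalutamide 18 to 20 (counts) and 24 to 25 (FPKM), JQ-1 added to DHT 19 to 23 (counts) and 27 to 29 (FPKM), enzalutamide by JQ-1 interaction 1 to 2 (counts) and 11 to 16 (FPKM), DHT by JQ-1 interaction 7 to 10 (counts) and 22 to 27 (FPKM) and serum by enzalutamide interaction in MR49F 11 to 20 (FPKM).

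PKM, which did not pass in these comparisons with all libraries, changed sign. With 1 library left out its log2 difference ranged from -0.0898 (adjusted p = 0.005, without replicate 1 of MR49F vehicle) to 0.0216 between the lines, from -0.1116 to 0.057 (counts) and -0.0664 to 0.0166 (FPKM) for enzalutamide in stripped serum, from -0.0106 to 0.1706 (counts) and -0.0675 to 0.0156 (FPKM) for JQ-1 added to enzalutamide, and from -0.0355 to 0.062 (counts) for JQ-1 added to DHT. With scaled FPKM PKM had 0.0048 for enzalutamide and 0.0735 for JQ-1 added to enzalutamide, GAPDH 0.0054 under DHT and SLC2A1 0.0469 under JQ-1.

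The replicate numbers were not used to pair the samples. In 0 of 17 pairs of groups did every same-numbered pair correlate above 0.1 (r from -0.161 to 0.169), a rule that cannot exclude a weak pairing. With the replicate number as a block, edgeR called 8 members for enzalutamide in stripped serum and 6 for enzalutamide in full serum MR49F, and limma 27 for DHT, and every member count stayed within 1.5 times. Over all genes the edgeR block moved 1 of 12 comparisons beyond 1.5 times, to 1.637 times as many calls, and the lowest ratio was 0.797. Stripped serum depth on genes, 982130 to 1813262 reads, limits the count results there.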
